A study of Mus musculus with 12 samples.

Results

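The collagen gene family of the mouse was followed through RNA sequencing of rectum. Members were taken by name alone, as genes whose symbol is Col, a number, the letter a and a number and nothing more. This gave 44 genes of 27785 in the deposited table. Levels are taken to be FPKM, fragment numbers corrected for transcript length and library size, so that levels of different genes can be compared. The deposited table names no unit.

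The 12 libraries fall into 4 groups, all from rectum. The Lgr5-Apc group (n = 4) has the genotype Lgr5creER;APC flox, the Cdx2-Apc group (n = 3) CDX2creER;APC flox, and the Lgr5-Cdx2-Apc group (n = 2) Lgr5creER;CDX2creER;APC flox. CreER is a recombinase that tamoxifen switches on, here driven by Lgr5, a gene of intestinal stem cells, by Cdx2, a gene of intestinal epithelium, or by both. It removes the floxed part of Apc, a brake on Wnt signalling, in cells where the driver is or was active, so these bulk samples mix recombined and other cells. The 3 control samples are titled WT, but their genotype field names CDX2creER;APC flox followed by WT in brackets. The labels thus do not tell if the controls had CreER or floxed Apc. Tamoxifen at 25 mg/kg on 5 days running is given in the treatment protocol of all samples, while the treatment field naming it is filled in for the Apc groups and not for the controls. Ages, strains and the animal behind each sample are not given, so each p-value reflects only how far these samples spread, which may be technical.

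Collagens are chains that wind into triple helices and are secreted into the extracellular matrix or held in the cell membrane. Fibrillar collagens such as types I, III and V form the cables of connective tissue and are made mostly by fibroblasts and smooth muscle, whereas type IV collagen forms the sheet-like network of basement membranes. Types VII and XVII tie epithelium to the tissue below it: type XVII is a membrane protein of hemidesmosomes in basal keratinocytes of stratified squamous epithelium, and type VII builds the anchoring fibrils under them. The rectum is lined by columnar epithelium, and the anal canal next to it by squamous epithelium.

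Stretches directly upstream of 3 members with their highest levels in the Lgr5-Cdx2-Apc libraries are printed here, with the short interval between the head-to-head pair Col4a4 and Col4a3. They are RefSeq promoter windows on GRCm38.p6, cut where needed to the run free of annotated exons. Positions are chr9:108953336-108953585 on the plus strand for Col7a1, chr19:47692095-47692292 on the minus strand for Col17a1, chr11:51289670-51289919 on the plus strand for Col23a1 and chr1:82586850-82586920 on the minus strand for the Col4a4 and Col4a3 interval. Capitals mark matches on either strand to TATAAA (the TATA box), to CCAAT (the CCAAT box) or to GGGCGG (the GC box).
Col7a1: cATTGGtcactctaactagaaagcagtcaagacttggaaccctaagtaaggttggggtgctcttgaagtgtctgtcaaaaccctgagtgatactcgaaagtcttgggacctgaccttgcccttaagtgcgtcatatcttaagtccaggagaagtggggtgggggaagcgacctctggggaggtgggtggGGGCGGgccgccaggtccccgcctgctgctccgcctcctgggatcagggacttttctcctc
Col17a1: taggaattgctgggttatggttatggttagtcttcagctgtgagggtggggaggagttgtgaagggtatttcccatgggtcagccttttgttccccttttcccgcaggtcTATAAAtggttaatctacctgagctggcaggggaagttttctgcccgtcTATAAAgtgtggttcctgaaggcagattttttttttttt
Col23a1: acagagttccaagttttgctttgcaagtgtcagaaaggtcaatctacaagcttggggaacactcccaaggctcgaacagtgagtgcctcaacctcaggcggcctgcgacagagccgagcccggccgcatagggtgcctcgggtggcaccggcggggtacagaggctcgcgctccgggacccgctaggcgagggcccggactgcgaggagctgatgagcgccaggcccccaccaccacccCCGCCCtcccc
Col4a4 to Col4a3 interval: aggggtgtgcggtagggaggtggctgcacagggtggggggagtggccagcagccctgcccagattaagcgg

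In the printed runs, Col17a1 has TATAAA at positions 111 and 160, Col7a1 has CCAAT at position 2 and GGGCGG at position 190, and Col23a1 has GGGCGG at position 240, counted from the 5′ end of each run. The 71 bases between Col4a4 and Col4a3 hold none of these words, nor does any printed run hold TGANTCA, a word bound by AP-1. A window was found for 35 of the 44 members. Over 250 bases upstream and on both strands, TATAAA occurred in 5 of the 35 (14.3%) and in 12.4% of all 32851 windows. CCAAT occurred in 13 (37.1%, against 33.8%), GGGCGG in 21 (60%, against 32.7%) and TGANTCA in 1, Col6a1 (2.86%, against 6.75%). A match describes the letters and not a bound site.

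Some libraries differed from others of their group in markers of cell type. A squamous epithelium score, the mean log2(FPKM + 1) of 10 keratinocyte genes, stood at 8.93 and 9.39 in Lgr5-Cdx2-Apc, 6.54, 2.17 and 1.81 in the controls, 3.83, 9.21, 7.99 and 0.364 in Lgr5-Apc and 0.870, 1.30 and 4.75 in Cdx2-Apc. Summed, these markers reached 11535 to 19441 FPKM in Lgr5-Cdx2-Apc, 42.4 to 2921 in control, 4.09 to 15904 in Lgr5-Apc and 14.2 to 607 in Cdx2-Apc. None was at 0 in the Lgr5-Cdx2-Apc libraries, whereas Dsg3, Ivl and Lor were at 0 in Lgr5-Apc replicate 4 and Ivl in control replicate 3 and Cdx2-Apc replicate 2. Columnar epithelium markers summed to 181 to 998 FPKM in Lgr5-Cdx2-Apc and to 3422 to 5429 in control, and smooth muscle markers to 65.6 to 94.4 and 3053 to 3741, with no marker of either list at 0 in any library. Skeletal muscle markers went the other way, with sums of 394 and 460 FPKM in the pair, 14.0 to 23.6 in control and 4.92 to 14.9 in Cdx2-Apc. Against control, 5 of 6 tested skeletal muscle and 2 of 10 squamous markers were called higher in the pair, beside 10.5% of all genes. Called lower were 7 of 8 columnar and 8 of 8 smooth muscle markers, beside 8.55% of all genes. Lgr5-Apc replicate 2 came near the pair in columnar (1136 FPKM) and skeletal muscle markers (411). Its smooth muscle markers summed to 657 FPKM, well above the pair and near the 764 of Lgr5-Apc replicate 4. Rectum tissue as labelled was thus low in columnar markers and held skeletal muscle markers in these 3 libraries, and smooth muscle markers were lowest in the pair. The part of skeletal muscle in the collagen differences was not tested. Apc itself lay between 13.5 and 18.8 FPKM in all 12 libraries, and limma called neither Apc, Lgr5 nor Cdx2 in any of the 6 comparisons of groups. Cdx2 was far from even, at 0.248 to 151 FPKM within Lgr5-Apc and at 18.5 and 1.44 in Lgr5-Cdx2-Apc. The lack of a Cdx2 call thus does not show a stable level.

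Of the 44 collagens, 27 reached 1 FPKM in at least 2 libraries and were tested, and 16 of these reached it in all 12 libraries. Col3a1, Col1a1 and Col1a2 were the most abundant fibrillar members, with means of 100 (Col3a1), 87.4 (Col1a1) and 74.5 FPKM (Col1a2) over the 12 libraries, and Col17a1 stood between them at 77 FPKM. All collagens together made up 0.156% and 0.155% of the summed FPKM in Lgr5-Cdx2-Apc, and 0.0309% (Lgr5-Apc replicate 4) to 0.144% (Lgr5-Apc replicate 1) in the others. Epithelial anchoring collagens, Col7a1 and Col17a1, made up 41.6% and 31.9% of collagen FPKM in Lgr5-Cdx2-Apc. Their share was 25.8%, 0.296% and 0.235% in the controls, 0.547%, 39.6%, 11.2% and 0.146% in Lgr5-Apc and 0.0807%, 0.296% and 5.84% in Cdx2-Apc. By this share Lgr5-Apc replicate 2 lay between the Lgr5-Cdx2-Apc libraries, and control replicate 1 came next.

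**Figure D1:**
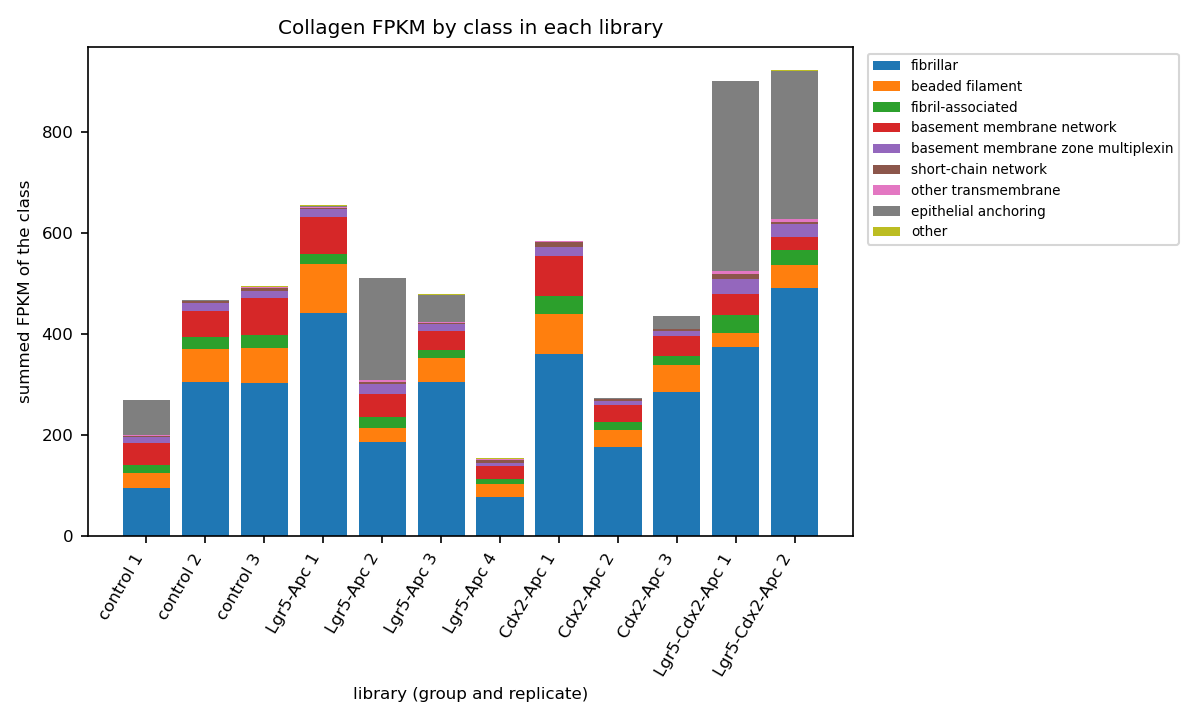
Summed FPKM of each collagen class (vertical axis) in each of the 12 libraries (horizontal axis), stacked by class. The anchoring class (grey) is a large block in the 2 Lgr5-Cdx2-Apc libraries and in Lgr5-Apc replicate 2, while fibrillar collagens (blue) range from 77.5 FPKM in Lgr5-Apc replicate 4 to 493 FPKM in Lgr5-Cdx2-Apc replicate 2.

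**Figure D2:**
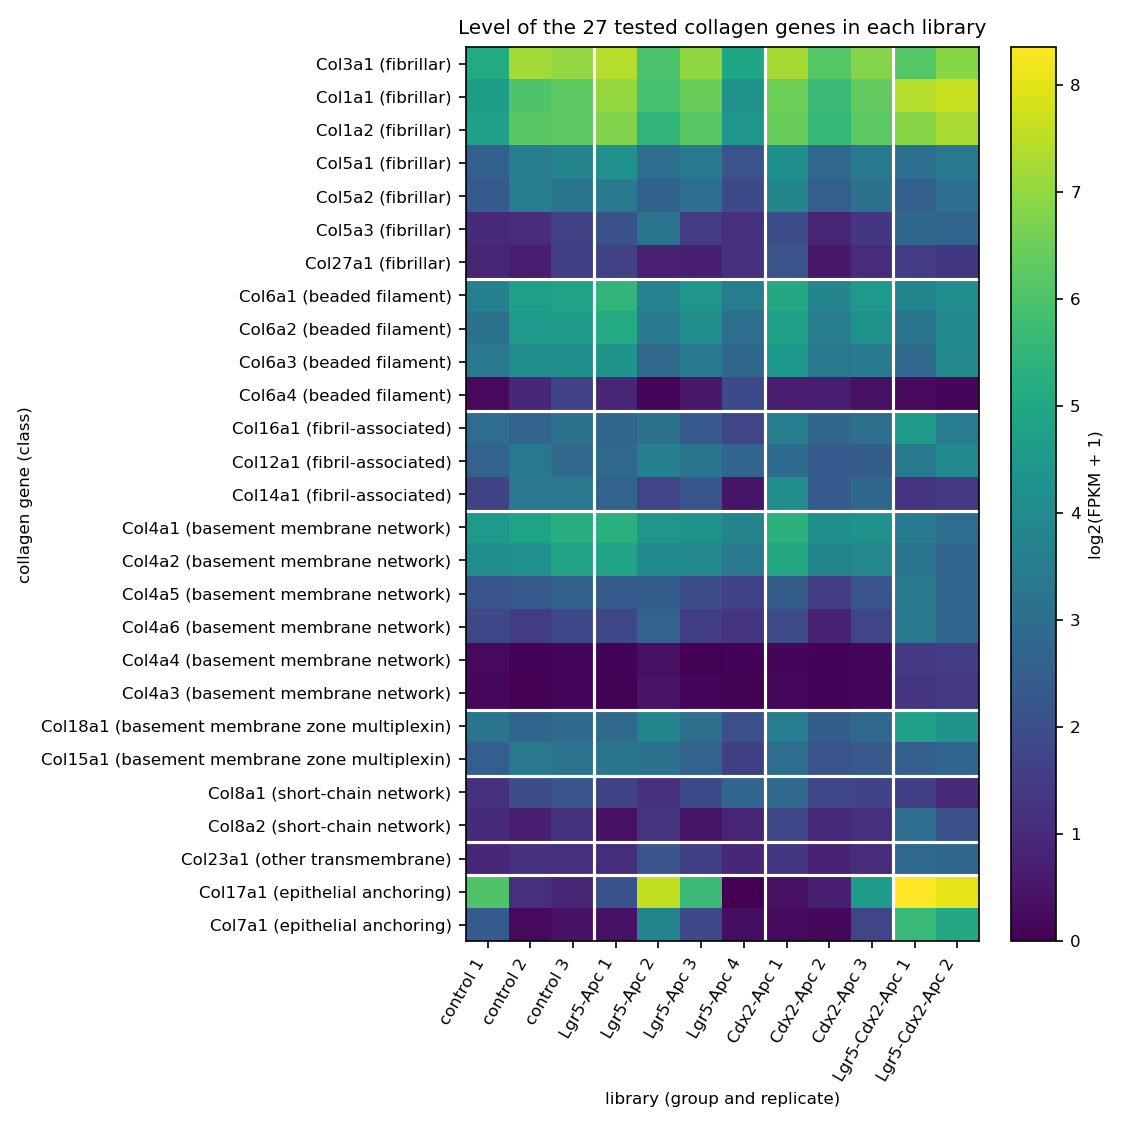
Level of the 27 tested collagen genes (rows, by class) in each library (columns) as log2(FPKM + 1), with yellow high and dark blue low. Col17a1 and Col7a1 vary between libraries of 1 group, whereas Col4a3 and Col4a4 reach 1 FPKM only in the 2 Lgr5-Cdx2-Apc libraries.

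Against control, the libraries with both drivers had more Col7a1, Col18a1, Col23a1, Col8a2, Col4a3 and Col4a4 and less Col4a1. Of the 27 tested collagens, 6 were higher and 1 was lower at an adjusted p below 0.05 (limma, Benjamini-Hochberg over 17360 genes). Over all genes tested, 10.5% were called higher and 8.55% lower. Col4a3 and Col4a4 reached 1 FPKM only in the 2 Lgr5-Cdx2-Apc libraries, so they passed the filter through that group and had to differ. That leaves the other 4 higher members to set beside the background, which still holds 855 genes that passed through that group. Groups did not overlap for 14 members that were higher and 3 that were lower, where 32.1% of all genes lay higher without overlap and 25.3% lower. Over all tested genes the median difference was 0.07 on the log2(FPKM + 1) scale, and over the tested collagens 0.66. Without the genes that passed the filter through that group, the medians were 0.027 over 16505 genes and 0.41 over 25 collagens. With 1 Lgr5-Cdx2-Apc library left out, whichever it was, 0 collagens were called. Leaving out control replicate 2 gave 3 higher and 0 lower, leaving out control replicate 3 gave 4 and 0, and leaving out Lgr5-Apc replicate 4 gave 10 and 2. With the first library of Lgr5-Apc or of Cdx2-Apc left out, 2 were lower. All differences below are on the log2(FPKM + 1) scale, which understates the change of genes near or below 1 FPKM.

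**Figure D3:**
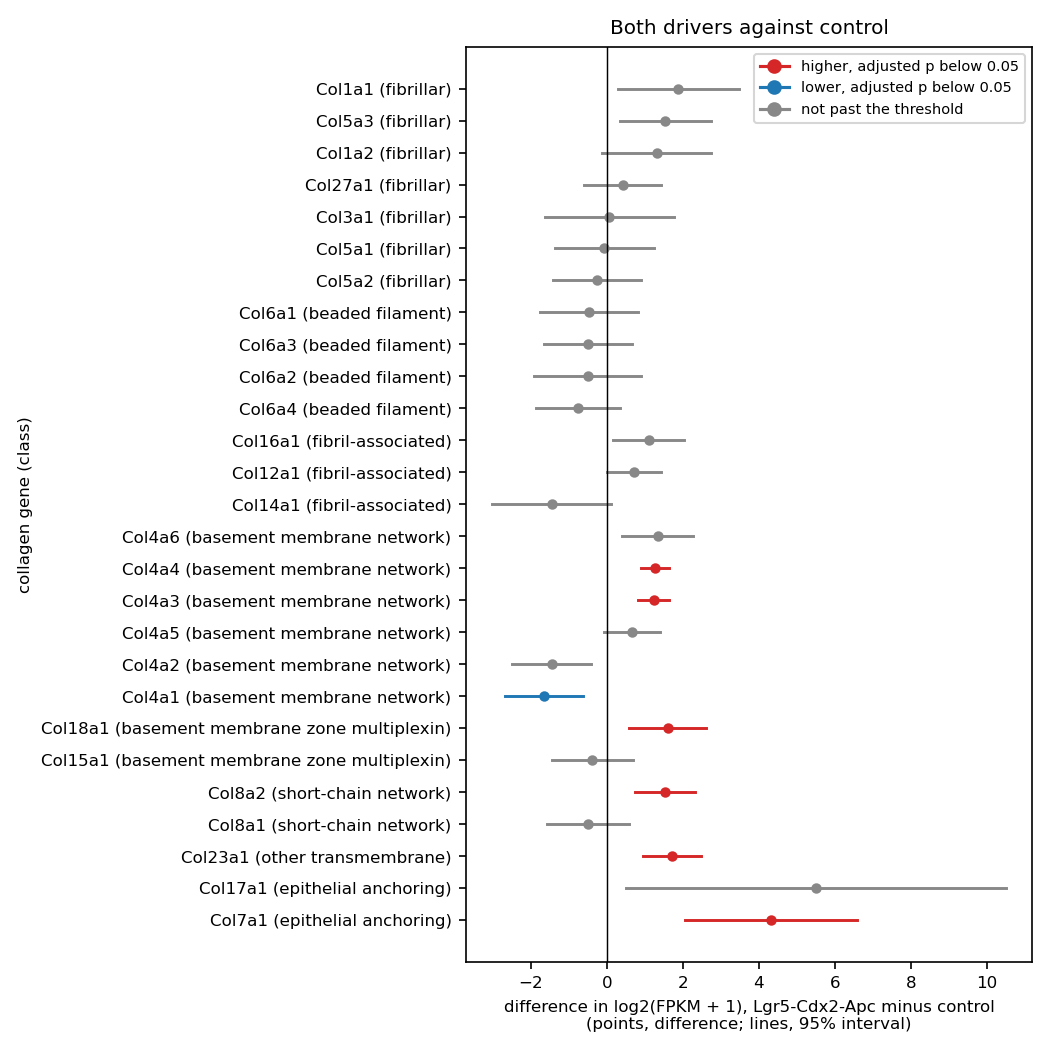
Difference in log2(FPKM + 1) between Lgr5-Cdx2-Apc (n = 2) and control (n = 3) for each tested collagen gene, with its 95% interval. Red marks 6 genes called higher, blue Col4a1, called lower, and grey the 20 others, among them Col17a1, whose interval runs from 0.50 to 10.51.

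Col17a1 encodes the hemidesmosome collagen of basal keratinocytes (chr19:47646344-47692094, minus strand, GRCm38, GENCODE M21). Its level was 65.5, 1.22 and 0.826 FPKM in control replicates 1 to 3, 3.26, 190, 51.2 and 0 in Lgr5-Apc replicates 1 to 4, 0.283, 0.674 and 23.2 in Cdx2-Apc replicates 1 to 3, and 326 and 262 in Lgr5-Cdx2-Apc replicates 1 and 2. No other library reached the Lgr5-Cdx2-Apc pair, but within the other groups single libraries stood far above the rest: control replicate 1, Lgr5-Apc replicates 2 and 3 and Cdx2-Apc replicate 3. Group means were 22.5 ± 37.2 (SD, n = 3) in control, 61.1 ± 89.0 (n = 4) in Lgr5-Apc, 8.05 ± 13.1 (n = 3) in Cdx2-Apc and 294 ± 45.1 FPKM (n = 2) in Lgr5-Cdx2-Apc. The Lgr5-Cdx2-Apc minus control difference of 5.50 ± 2.26 (SE) did not pass (limma, adjusted p = 0.106). With 1 library left out the adjusted p of Col17a1 ran from 0.0514 to 0.308. With the squamous score as a covariate, added after seeing the data, the Col17a1 difference was 0.30 (adjusted p = 0.777).

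Col7a1 encodes the chain of anchoring fibrils (chr9:108953586-108984875, plus strand). In control it measured 4.44, 0.164 and 0.339 FPKM, in Lgr5-Apc 0.322, 12.6, 2.58 and 0.226, in Cdx2-Apc 0.189, 0.136 and 2.32, and in Lgr5-Cdx2-Apc 49.3 and 32.0. Both Lgr5-Cdx2-Apc libraries were above every other library, and the high libraries in the other groups were those that were high for Col17a1. Its group means were 1.65 ± 2.42 in control and 40.6 ± 12.2 FPKM (SD) in Lgr5-Cdx2-Apc. Col7a1 was called higher than control, by 4.32 ± 1.02 (95% interval 2.06 to 6.58, adjusted p = 0.0199). With the same covariate the Col7a1 difference was 2.18 (adjusted p = 0.0698). Without control replicate 2, control replicate 3, Lgr5-Cdx2-Apc replicate 1 or Lgr5-Cdx2-Apc replicate 2, the adjusted p of Col7a1 was 0.0658, 0.0670, 0.104 and 0.135.

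Both anchoring collagens moved with the squamous markers across libraries. Col17a1 was highest in the 2 Lgr5-Cdx2-Apc libraries and Lgr5-Apc replicate 2, whose squamous scores of 8.93, 9.39 and 9.21 were also the 3 highest. It was listed at 0 in Lgr5-Apc replicate 4, which had the lowest squamous score, 0.364. In bulk tissue, fewer cells of a type and less RNA per cell cannot be told apart, here and in the results that follow. Both Lgr5-Cdx2-Apc libraries had high squamous scores, so the covariate fits given above cannot fully tell squamous cells and group apart. The part of the squamous cells in the Col17a1 and Col7a1 differences was not tested.

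**Figure D4:**
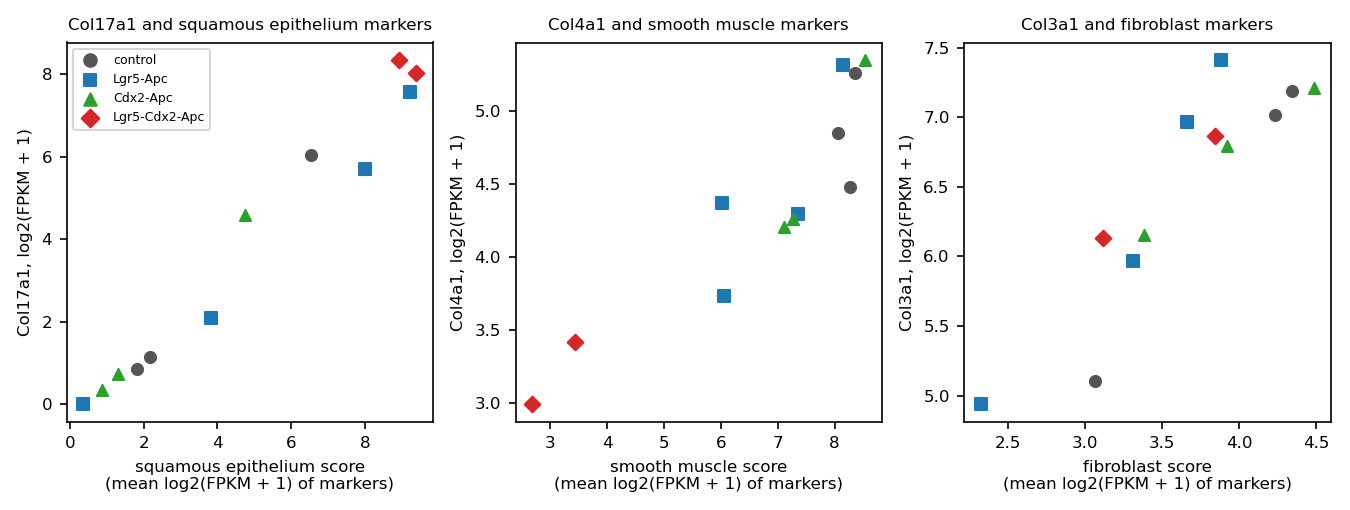
Level of 3 collagens (vertical axes, log2(FPKM + 1)) against the mean log2(FPKM + 1) of marker lists (horizontal axes) in the 12 libraries, coloured by group: Col17a1 with squamous epithelium, Col4a1 with smooth muscle and Col3a1 with fibroblast markers. Lgr5-Cdx2-Apc libraries lie at the top right of the first panel and at the bottom left of the second, and within the spread of the other groups in the third.

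The other transmembrane collagens were low. Col23a1, a membrane collagen (chr11:51289920-51583918, plus strand), was at 0.950, 1.28 and 1.25 FPKM in control, 1.13, 3.65, 1.90 and 0.897 in Lgr5-Apc, 1.57, 0.727 and 1.11 in Cdx2-Apc and 6.37 and 5.91 in Lgr5-Cdx2-Apc. The pair with both drivers exceeded all others, and Lgr5-Apc replicate 2 came next. Col23a1 was called higher than control, by 1.73 ± 0.34 (adjusted p = 0.0118), with group means of 1.16 ± 0.184 and 6.14 ± 0.322 FPKM. The Col23a1 call was lost without either Lgr5-Cdx2-Apc library (adjusted p = 0.0716 without replicate 1 and 0.117 without replicate 2) and with the squamous score as a covariate (difference 1.29, adjusted p = 0.0860). Col13a1 and Col25a1, also membrane collagens, stayed below 1 FPKM in every library.

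The network of basement membranes is built from type IV collagen, whose 6 chains were all tested. Col4a1 and Col4a2 pair in the protomer found in nearly all basement membranes, Col4a3 and Col4a4 join Col4a5 in that of the kidney glomerulus and some other membranes, and Col4a6 joins Col4a5 in epithelial and smooth muscle membranes. Each pair lies head to head on its chromosome. Col4a4 and Col4a3 are 71 bases apart on chromosome 1, Col4a6 and Col4a5 1308 bases apart on X, and the annotated Col4a1 and Col4a2 overlap by 22 bases on chromosome 8.

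Col4a1 (chr8:11198423-11312826, minus strand) measured 21.4, 27.8 and 37.4 FPKM in control, 38.7, 19.7, 18.6 and 12.3 in Lgr5-Apc, 39.8, 17.5 and 18.2 in Cdx2-Apc and 9.72 and 6.96 in Lgr5-Cdx2-Apc. The Lgr5-Cdx2-Apc pair was the lowest of the 12 libraries, with Lgr5-Apc replicate 4 next. Col4a1 fell against control, with a difference of -1.66 ± 0.46 (95% interval -2.68 to -0.63, adjusted p = 0.0345), from 28.9 ± 8.06 to 8.34 ± 1.95 FPKM. Without control replicate 2, control replicate 3, Lgr5-Cdx2-Apc replicate 1 or Lgr5-Cdx2-Apc replicate 2 the adjusted p of Col4a1 was 0.0835, 0.105, 0.0967 and 0.225, and it was 0.169 with the squamous covariate. Its partner Col4a2 was at 16.0, 17.7 and 28.3 FPKM in control and 8.29 and 5.42 in Lgr5-Cdx2-Apc, without overlap, and the difference of -1.45 ± 0.47 did not pass (adjusted p = 0.0540). Col4a2 passed with quantile scaling (-1.62, adjusted p = 0.0429), in the compared groups alone (0.0245) and without replicate 1 (0.0369) or 4 (0.0382) of Lgr5-Apc or replicate 1 of Cdx2-Apc (0.0411). Both chains were lower where smooth muscle markers were lower: the smooth muscle score was 8.28, 8.06 and 8.36 in control and 3.44 and 2.69 in Lgr5-Cdx2-Apc. Endothelial markers, from another cell type rich in Col4a1, gave scores of 1.58, 2.20 and 2.68 in control and 1.91 and 2.12 in Lgr5-Cdx2-Apc. Against control 0 of 8 were called, beside 10.5% of all genes higher and 8.55% lower. The part of these cells in the Col4a1 difference was not tested.

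The ratio of Col4a1 to Col4a2 varied far less than either level. It was 1.33, 1.57 and 1.32 in control, 1.42, 1.34, 1.34 and 1.34 in Lgr5-Apc, 1.25, 1.35 and 1.34 in Cdx2-Apc and 1.17 and 1.28 in Lgr5-Cdx2-Apc. The value of 1.17 was the lowest of the 12, and 1.28 lay within the range of Cdx2-Apc. An exact two-sided permutation test gave p = 0.2 against control, the smallest that 2 against 3 libraries allow, so that this design cannot reach 0.05 for a single ratio.

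Col4a3 (chr1:82586921-82722059, plus strand) and Col4a4 (chr1:82448423-82586849, minus strand) were near 0 outside the Lgr5-Cdx2-Apc group. Col4a3 measured 0.126, 0.00918 and 0.116 FPKM in control, 0.0244, 0.357, 0.104 and 0.0364 in Lgr5-Apc, 0.132, 0.0508 and 0.0910 in Cdx2-Apc and 1.43 and 1.67 in Lgr5-Cdx2-Apc. Col4a4 measured 0.147, 0.0609 and 0.114 in control, 0.0598, 0.295, 0.0430 and 0.0675 in Lgr5-Apc, 0.0867, 0.0567 and 0.111 in Cdx2-Apc and 1.61 and 1.71 in Lgr5-Cdx2-Apc. Lgr5-Apc replicate 2 held the highest value outside the Lgr5-Cdx2-Apc pair for both genes. Differences from control were 1.23 ± 0.18 for Col4a3 (adjusted p = 0.00332) and 1.27 ± 0.17 for Col4a4 (adjusted p = 0.00212), both at levels where the pseudocount of 1 FPKM compresses the fold. Both genes passed the filter through the Lgr5-Cdx2-Apc libraries and had to differ. The FPKM table gives no reads, so the number of fragments behind these low values is unknown.

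Col4a5 was at 3.63, 4.18 and 4.98 FPKM in control and 9.36 and 5.63 in Lgr5-Cdx2-Apc, which differed by 0.66 ± 0.34 and was not called (adjusted p = 0.177). Col4a6 was at 2.52, 1.78 and 2.56 FPKM in control, 2.52, 5.14, 1.90 and 1.45 in Lgr5-Apc, 2.74, 0.753 and 2.38 in Cdx2-Apc and 9.29 and 5.61 in Lgr5-Cdx2-Apc. The Lgr5-Cdx2-Apc pair was highest, and Lgr5-Apc replicate 2 was close to its lower value. Against control the Col4a6 difference of 1.34 ± 0.42 did not pass (adjusted p = 0.0513). It passed under 6 of 22 alternatives: with quantile scaling (1.22, adjusted p = 0.0336), in the compared groups alone (0.0207), without replicate 2 (0.0201) or 4 (0.0392) of Lgr5-Apc, without replicate 2 of Cdx2-Apc (0.0437), and with the 3 squamous-rich libraries of other groups (control 1, Lgr5-Apc 2 and 3) left out together (0.0378). Col4a6 stood to Col4a5 at 0.992 and 0.995 in the pair, at 0.426 to 0.696 in control, at 0.401 to 0.660 in Cdx2-Apc and at 0.572 to 1.14 in Lgr5-Apc, where replicate 2 was above the pair.

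Col18a1 encodes the multiplexin of basement membranes whose tail is the fragment endostatin (chr10:77052178-77166548, minus strand). It measured 8.17, 5.53 and 6.65 FPKM in control, 6.43, 12.9, 7.56 and 3.12 in Lgr5-Apc, 10.8, 4.51 and 6.15 in Cdx2-Apc and 26.6 and 18.8 in Lgr5-Cdx2-Apc. Both libraries with both drivers were above all others. Its difference from control was 1.60 ± 0.46 (adjusted p = 0.0372), with means of 6.79 ± 1.32 and 22.7 ± 5.52 FPKM. That call was lost without control replicate 2 (adjusted p = 0.102), control replicate 3 (0.0926), Cdx2-Apc replicate 3 (0.0550) or either Lgr5-Cdx2-Apc library (0.176 and 0.153). With the squamous covariate the Col18a1 difference was 0.93 (adjusted p = 0.258), and with no filter on low values its adjusted p was 0.0521. Its relative Col15a1, the multiplexin of muscle and vessel basement membranes, was at 4.61, 9.20 and 8.15 in control and 4.81 and 5.59 in Lgr5-Cdx2-Apc (difference -0.38, adjusted p = 0.585).

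Short-chain collagens form hexagonal networks. Col8a2 (chr4:126286793-126314330, plus strand) measured 0.986, 0.676 and 1.36 FPKM in control, 0.309, 1.37, 0.377 and 0.809 in Lgr5-Apc, 2.40, 1.06 and 1.21 in Cdx2-Apc and 6.91 and 3.19 in Lgr5-Cdx2-Apc. The pair exceeded every other library, and its own values differed by more than the whole range of the controls. Col8a2 was called higher than control, by 1.53 ± 0.36 (adjusted p = 0.0196). The Col8a2 call was lost without control replicate 2 (adjusted p = 0.0631), without Lgr5-Cdx2-Apc replicate 1 (0.142) or replicate 2 (0.0736), and with the squamous covariate (0.0948), under which the difference was still 1.53. Its partner Col8a1, expressed in vessels and smooth muscle, did not follow: it was at 1.30, 2.97 and 3.55 in control, 2.25, 1.29, 2.64 and 5.64 in Lgr5-Apc, 6.18, 2.46 and 2.18 in Cdx2-Apc and 1.96 and 1.05 in Lgr5-Cdx2-Apc (difference -0.49, adjusted p = 0.488). Col10a1, of growth plate cartilage, reached at most 0.0438 FPKM.

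**Figure D5:**
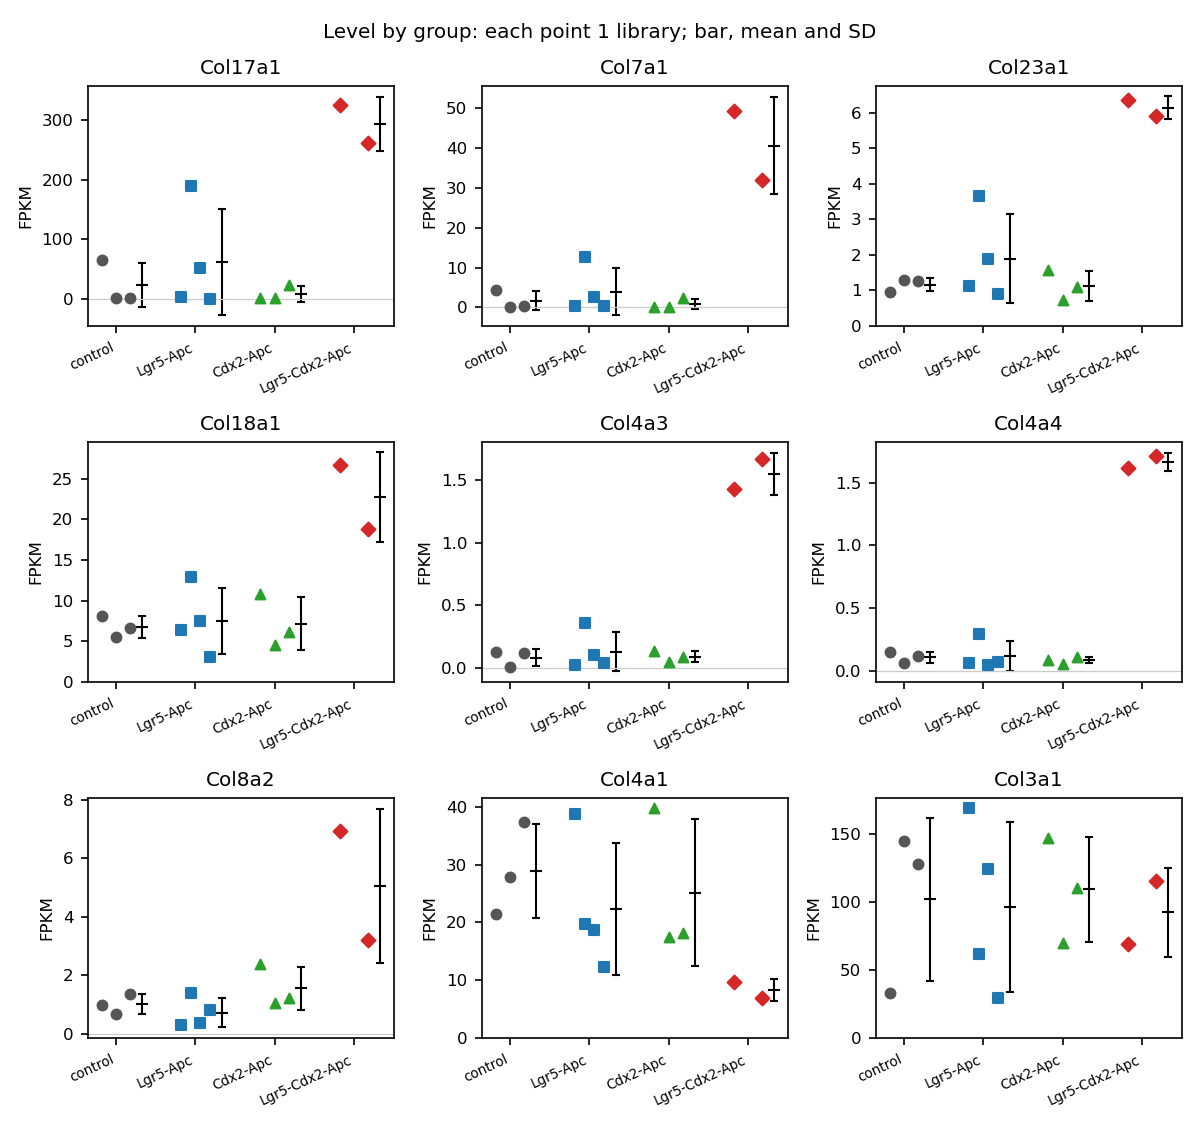
FPKM of 9 collagens by group, each point 1 library, with bars for the mean and SD of each group (n = 3, 4, 3 and 2 from left to right). The Lgr5-Cdx2-Apc points lie above all others in the first 7 panels and below them for Col4a1, and overlap the other groups for Col3a1.

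Fibrillar collagens carried most collagen FPKM in most libraries, and 0 of the 7 tested were called in any comparison. Col3a1, the type III chain of distensible tissue (chr1:45311538-45349706, plus strand), was at 33.5, 145 and 128 FPKM in control, 169, 61.7, 124 and 29.6 in Lgr5-Apc, 147, 70.2 and 110 in Cdx2-Apc and 69.3 and 116 in Lgr5-Cdx2-Apc. The groups overlapped throughout, with control replicate 1 and Lgr5-Apc replicate 4 lowest. Its difference from control was 0.07, with a 95% interval of -1.64 to 1.77 that covers changes of either sign, and it was -0.60 without control replicate 1.

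The type I chains had another order. Col1a1 (chr11:94936224-94953042, plus strand) was at 24.3, 65.1 and 75.0 FPKM in control, 129, 60.2, 88.4 and 18.1 in Lgr5-Apc, 91.0, 48.3 and 79.5 in Cdx2-Apc and 170 and 199.8 in Lgr5-Cdx2-Apc. The pair was above all 10 other libraries. The Col1a1 difference from control, 1.88 ± 0.72, did not pass (adjusted p = 0.0873). It passed in the compared groups alone (adjusted p = 0.0420) and without Lgr5-Apc replicate 4 (0.0246). Col1a2, the second type I chain, was at 26.6, 73.6 and 74.4 in control and 115 and 153 in Lgr5-Cdx2-Apc, and its difference of 1.32 ± 0.65 did not pass either (adjusted p = 0.164).

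Per library, Col1a1 stood to Col3a1 at 2.45 and 1.73 in Lgr5-Cdx2-Apc and at 0.45 to 0.976 in the other 10 libraries. Both were thus the only libraries with more Col1a1 than Col3a1, and Lgr5-Apc replicate 2 had the highest ratio of the others. Exact two-sided permutation tests of this ratio gave p = 0.2 against control and against Cdx2-Apc and p = 0.133 against Lgr5-Apc, each the smallest that the numbers of libraries allow, so none could reach 0.05. The ratio was examined after its values were seen. Fibroblast markers, from the cells that make most type I and III collagen, had scores of 3.06, 4.34 and 4.23 in control and 3.11 and 3.84 in Lgr5-Cdx2-Apc. Against control 1 of 10, Thy1, was called higher and 0 lower, beside 10.5% and 8.55% of all genes. Of the 10 differences 8 were negative, and their median was -0.54. These markers summed to 120 to 380 FPKM in control and 156 to 278 in Lgr5-Cdx2-Apc, and none was at 0. Markers of cartilage and bone, where type I and type II collagens are made, summed to at most 3.70 FPKM in any library.

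Type V collagen nucleates fibrils. Col5a1 and Col5a2 were at 7.38 and 9.37 and at 4.92 and 7.19 FPKM in Lgr5-Cdx2-Apc, inside the control ranges of 5.02 to 12.5 and 4.10 to 11.0. Col5a3 was at 1.02, 1.07 and 2.04 in control, 3.23, 8.29, 1.72 and 1.18 in Lgr5-Apc and 6.15 and 5.41 in Lgr5-Cdx2-Apc (difference 1.54 ± 0.54, adjusted p = 0.0694). It passed in the compared groups alone (0.0124), without Lgr5-Apc replicate 2 (0.0143) or 4 (0.0445), and without the 3 squamous-rich libraries (0.0389). Its highest value was that of Lgr5-Apc replicate 2, not of the pair. Col27a1, a cartilage-related fibrillar chain, differed by 0.41 (adjusted p = 0.531). Col24a1, Col11a1, Col11a2 and Col2a1 stayed below 1 FPKM in every library.

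Beaded filament collagen, type VI, links fibrils to cells. Col6a1 was at 11.8, 25.2 and 27.3 FPKM in control, 44.5, 12, 20.5 and 10.6 in Lgr5-Apc, 31.8, 13.0 and 21.6 in Cdx2-Apc and 12.5 and 16.2 in Lgr5-Cdx2-Apc. The groups overlapped, and 0 of the 4 tested type VI members were called in any comparison. Differences from control were -0.48 (Col6a1), -0.51 (Col6a2), -0.49 (Col6a3) and -0.76 (Col6a4), with adjusted p from 0.287 to 0.584. Col6a1 stood to Col6a2 at 1.12 to 1.53 in all 12 libraries.

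Of the fibril-associated collagens, which coat fibrils and space them, 3 of 9 were tested. Col16a1 was at 6.94, 5.32 and 7.87 FPKM in control, 5.76, 7.71, 4.23 and 2.32 in Lgr5-Apc, 10.9, 5.82 and 7.48 in Cdx2-Apc and 22.4 and 10.4 in Lgr5-Cdx2-Apc. Its lower Lgr5-Cdx2-Apc value was below that of Cdx2-Apc replicate 1, and the difference from control, 1.10 ± 0.43, did not pass (adjusted p = 0.0902, or 0.0479 without Lgr5-Apc replicate 4). Col12a1 was at 5.13, 9.29 and 6.22 in control, 6.40, 11.4, 8.24 and 5.65 in Lgr5-Apc, 6.56, 4.28 and 4.47 in Cdx2-Apc and 9.29 and 14.6 in Lgr5-Cdx2-Apc (difference from control 0.72, adjusted p = 0.134). Col14a1 went the other way, at 2.30, 9.25 and 9.12 in control and 1.45 and 1.67 in Lgr5-Cdx2-Apc, but the difference of -1.45 ± 0.71 did not pass (adjusted p = 0.163).

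The 17 members that were not tested comprised 13 below 1 FPKM in every library and 4 that reached it in 1 library. Those were Col6a5 (2.5 FPKM, Cdx2-Apc replicate 3), Col20a1 (1.41, Lgr5-Cdx2-Apc replicate 1), Col9a2 (1.13, Lgr5-Apc replicate 4) and Col9a3 (1.02, Lgr5-Cdx2-Apc replicate 1). Col9a3 had 0.927 in Lgr5-Cdx2-Apc replicate 2, just under the filter. The cartilage collagens Col2a1, Col9a1 and Col10a1 were listed at 0 in 7, 5 and 9 of the 12 libraries.

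Against each single-driver group the libraries with both drivers were higher in several of the same genes, and these comparisons share the same 2 Lgr5-Cdx2-Apc libraries, so they are not independent. Against Lgr5-Apc 7 of the 27 tested collagens were called higher and 0 lower, beside 5.22% and 3.77% of all genes. Groups did not overlap for 12 higher and 2 lower members, beside 18.1% and 14.9% of all genes. At an unadjusted p below 0.05, 2 of 27 were lower, Col4a1 and Col4a2, beside 13.9% of all genes. The called genes were Col18a1 (1.59 ± 0.43, adjusted p = 0.0480), Col7a1 (3.77 ± 0.97, 0.0400), Col16a1 (1.53 ± 0.40, 0.0438), Col23a1 (1.39 ± 0.33, 0.0303), Col8a2 (1.79 ± 0.34, 0.0145), Col4a4 (1.26 ± 0.16, 0.00193) and Col4a3 (1.18 ± 0.17, 0.00374). The last 2 again had to differ. Col17a1, at a difference of 4.35, did not pass (adjusted p = 0.203). This count was the least stable: it was 0 without either Lgr5-Cdx2-Apc library, 10 without the second Lgr5-Apc library, 5 without control replicate 1, 3 without replicate 1 or 3 of Lgr5-Apc or the third Cdx2-Apc library, and 4 without any 1 of the other 5 libraries.

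Against Cdx2-Apc 8 collagens were called higher and 0 lower, beside 12.1% and 11.7% of all genes. Groups did not overlap for 13 higher and 5 lower members, beside 33.4% and 30.4% of all genes. Col7a1 differed by 4.63 ± 1.02 (adjusted p = 0.0134), Col23a1 by 1.76 ± 0.34 (0.00928), Col18a1 by 1.60 ± 0.46 (0.0323) and Col8a2 by 1.21 ± 0.36 (0.0361). Col12a1 (1.07 ± 0.32, adjusted p = 0.0382) and Col4a6 (1.55 ± 0.42, 0.0275) passed here. Col4a4 and Col4a3 differed by 1.30 ± 0.17 (adjusted p = 0.00172) and 1.22 ± 0.18 (0.00321). Both passed the filter through the Lgr5-Cdx2-Apc libraries and again had to differ. Col17a1 at 6.29 ± 2.26 (adjusted p = 0.0656) and Col4a1 at -1.40 ± 0.46 (0.0509) did not pass. At an unadjusted p below 0.05, 3 of 27 were lower (Col4a1, Col4a2 and Col14a1), beside 18.6% of all genes. The number called higher was 4 without Cdx2-Apc replicate 2 or 3 and 0 without either Lgr5-Cdx2-Apc library. The number called lower was 2 without Lgr5-Apc replicate 1 and 3 without Lgr5-Apc replicate 4.

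Single drivers gave no collagen call. Lgr5-Apc against control, Cdx2-Apc against control and Lgr5-Apc against Cdx2-Apc each had 0 of 27 collagens called by limma, beside 0% higher and 0.0115% lower, 0.0288% and 0.0115%, and 0.00576% and 0.0288% of all genes. At an unadjusted p below 0.05 there were 0, 0 and 1 collagens (Col14a1, lower in Lgr5-Apc than in Cdx2-Apc), beside 1881, 285 and 1800 of all 17360 genes, and 0 collagens in each had groups that did not overlap, beside 3.96% higher and 3.96% lower, 5.88% and 2.7%, and 4.29% and 6.76% of all genes without overlap. Col17a1 had the largest difference of these in Lgr5-Apc against Cdx2-Apc, 1.94, with Lgr5-Apc libraries from 0 to 190 FPKM.

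Genes that make, process, degrade and bind collagen were taken from 7 lists holding 79 genes. Lgr5-Cdx2-Apc against control gave 1 of 16 tested biosynthesis genes higher and 0 lower. The 10.5% higher and 8.55% lower among all genes are the background for this count and for those of the other 6 lists, and nothing particular to a list is read from counts this small. The biosynthesis gene was Crtap, part of the prolyl 3-hydroxylation complex, at 6.21, 6.48 and 8.30 FPKM in control and 12.9 and 13.7 in Lgr5-Cdx2-Apc (0.84 ± 0.22, adjusted p = 0.0286). Serpinh1, the collagen chaperone HSP47, was at 31.6 to 43.2 FPKM in control and 19.4 and 23.7 in Lgr5-Cdx2-Apc, which did not pass (difference -0.77, adjusted p = 0.296). Of 10 processing and cross-linking genes 1 was higher and 0 lower: Adamts14, a procollagen N-proteinase, was at 0.300, 0.141 and 0.135 FPKM in control and 13.1 and 6.55 in Lgr5-Cdx2-Apc (3.11 ± 0.53, adjusted p = 0.00646). Of 9 degradation genes 1 was higher and 0 lower: Mmp9, a gelatinase that neutrophils and keratinocytes release, was at 0, 0.348 and 0.652 in control and 9.35 and 5.56 in Lgr5-Cdx2-Apc (2.66 ± 0.26, adjusted p = 0.000457). The Crtap call was lost without any 1 control library (adjusted p 0.0506 to 0.0796) or either Lgr5-Cdx2-Apc library (0.105 and 0.185), and with the squamous covariate its difference was 0.66 (0.179). That of Adamts14 was lost without either Lgr5-Cdx2-Apc library (0.0581 and 0.0554). Mmp9 reached 1 FPKM only in the 2 Lgr5-Cdx2-Apc libraries, and Adamts14 in 1 other library, Lgr5-Apc replicate 2 (3.55 FPKM). Both thus passed the filter through the pair and had to differ. Over these lists the median differences were -0.13, -0.10 (-0.13 without Adamts14) and 0.54 (0.35 without Mmp9). Over all genes tested the median was 0.07, or 0.027 without the 855 genes that passed the filter through the pair. Of 7 tested immune markers 3 were called higher (Ptprc, Cd3e and Itgam), beside 10.5% of all genes, and Cd3e also passed the filter through the pair. Immune markers summed to 15.2 to 82.1 FPKM in control and 85.5 to 113 in Lgr5-Cdx2-Apc. These sums did not follow Mmp9 library by library: control replicate 2 had 82.1 FPKM of immune markers with Mmp9 at 0.348. The part of immune cells in the Mmp9 difference was not tested.

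Of 5 tested collagen receptors, 1 was higher and 2 were lower (median -1.14). Itga1, the integrin chain that binds type IV collagen and is abundant in smooth muscle, was at 19.2, 24.7 and 21.5 FPKM in control and 1.76 and 1.33 in Lgr5-Cdx2-Apc (-3.16 ± 0.45, adjusted p = 0.00262). Its partner Itgb1 was at 108, 119 and 113 in control and 48.1 and 53.7 in Lgr5-Cdx2-Apc (-1.14 ± 0.21, adjusted p = 0.00894). Ddr1, the receptor kinase of epithelia, was at 34.4, 17.2 and 30.7 in control and 76.0 and 55.5 in Lgr5-Cdx2-Apc (1.27 ± 0.36, adjusted p = 0.0357). Itga1 did not pass without Lgr5-Cdx2-Apc replicate 2 (adjusted p = 0.0611), nor Itgb1 without replicate 1 (0.0647) or 2 (0.0886) or with the squamous covariate (-0.93, 0.0682). The Ddr1 call was lost without Lgr5-Cdx2-Apc replicate 1 (adjusted p = 0.178) or 2 (0.148), control replicate 2 (0.101) or 3 (0.0710) or Cdx2-Apc replicate 2 (0.0532). With the squamous covariate the Ddr1 difference was 0.80 (adjusted p = 0.244).

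Of 7 small leucine-rich proteoglycans, which sit on fibrils and set their width, 1 was higher and 2 were lower (median -0.82). Ogn was at 30.7, 69.0 and 46.7 FPKM in control and 1.85 and 2.13 in Lgr5-Cdx2-Apc (-3.99 ± 0.54, adjusted p = 0.00217), and Prelp at 12.3, 20.3 and 21.4 and 2.75 and 4.15 (-2.07 ± 0.43, 0.0137). Fmod was at 0.884, 0.563 and 0.278 in control and 2.97 and 1.62 in Lgr5-Cdx2-Apc (1.05 ± 0.25, adjusted p = 0.0205). It stayed below 1 FPKM in all other libraries, so Fmod passed the filter through the pair and had to differ, and the median without it was -0.86. Without Lgr5-Cdx2-Apc replicate 2, Ogn (adjusted p = 0.0509) and Prelp (0.102) did not pass. Prelp also failed without Lgr5-Cdx2-Apc replicate 1 (0.0871) or control replicate 3 (0.0505), and Fmod without control replicate 2 (0.0562) or 3 (0.0700). With the squamous covariate neither Prelp (-1.97, adjusted p = 0.0787) nor Fmod (0.82, 0.148) passed. Ogn and Prelp were low in the same libraries as the smooth muscle markers, and the part of those cells was not tested.

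Among basement membrane partners of type IV collagen 1 of 10 was higher and 0 lower (median -0.12): Agrn, the proteoglycan agrin, was at 25.7, 10.4 and 15.9 FPKM in control and 63.4 and 46.4 in Lgr5-Cdx2-Apc (1.68 ± 0.42, adjusted p = 0.0251). Hemidesmosome and anchoring partners of Col17a1 and Col7a1 gave 1 of 9 higher and 0 lower (median 0.49). Lama3, a chain of the laminin to which both collagens anchor, was at 24.9, 14.0 and 14.4 in control, 24.0, 25.4, 27.9 and 13.2 in Lgr5-Apc, 9.5, 12.3 and 16.2 in Cdx2-Apc and 42.0 and 35.4 in Lgr5-Cdx2-Apc (1.12 ± 0.35, adjusted p = 0.0461). The Lama3 call was lost under 13 of 22 alternatives, among them leaving out any library except control replicate 1 and replicates 2 and 4 of Lgr5-Apc (adjusted p from 0.0529 to 0.188), and with the squamous covariate its difference was 0.45 (adjusted p = 0.310). That of Agrn was lost without control replicate 2 (adjusted p = 0.0761) or 3 (0.0710) and without either Lgr5-Cdx2-Apc library. With the squamous covariate the Agrn difference was smaller and did not pass (adjusted p = 0.177). Itga6 and Itgb4, the hemidesmosome integrin, which columnar epithelium also expresses, were at 49.7 to 79.4 and 34.3 to 62.4 FPKM in control and at 78.2 and 92.3 and 78.0 and 57.8 in Lgr5-Cdx2-Apc, with differences of 0.49 (adjusted p = 0.196) and 0.47 (0.268). Unlike Col17a1, these partners were well above 1 FPKM in every library.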

How the data were processed

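RNA was measured in 12 rectum libraries of 4 groups. The authors deposited 1 table of values, taken to be FPKM, made with STAR, Cufflinks and Cuffdiff on mm10, per the submitters' processing notes. Versions and the annotation used are not given in the sources used here, and the table's header names no unit. FPKM was inferred from the tools and the values, and whether libraries were rescaled to one another is unknown. Libraries are directional per the labels' protocols, but whether strand was used in assigning fragments is not stated. Depth in reads is unknown, so no counting interval was computed. Summed FPKM ran from 451297 to 728462 per library, with 20522 to 22562 genes above 0.

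Of 27831 lines, 25 had symbols turned into dates, which were left unnamed, and 27785 genes remained after removing repeats. The 17360 genes that reached 1 FPKM in 2 or more libraries were put on a log2(FPKM + 1) scale. All 12 libraries entered 1 fit by limma 3.58.1 under R 4.3.3 (empirical Bayes with trend, 6 comparisons of groups, two-sided, Benjamini-Hochberg adjusted p below 0.05 over all genes). The procedure was tested on simulated data. Positions came from GENCODE M21. The family and all lists were chosen with earlier results of these data known. Values in every library are given for collagens called in any comparison and for the most abundant member of each class with tested members, and of each pathway list up to 3 called members with the smallest p are named, mostly with their control and Lgr5-Cdx2-Apc values. The other genes and ratios given were chosen after their values were seen. Alternatives were a pseudocount of 0.1 FPKM, other filters, scaling by quantiles or by median of ratios, a fit to just the groups compared, a replicate block, robust moderation and leaving out each library.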

Additional observations from a re-analysis of the deposited data

Results flagged for a closer look

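In the Lgr5-Apc group, the only one with 4 libraries, single libraries stood apart from the others by Dixon's ratio of gap to range at the 95% level. This was so in 5 of 39 sets of values examined. The sets come from the same 4 libraries and share genes, so this number cannot be set against a chance rate. Lgr5-Apc replicate 2 stood apart with 0.295 FPKM of Col4a4 (ratio 0.903), a Col4a6 to Col4a5 ratio of 1.14 (0.860) and a Col17a1 to Col3a1 ratio of 3.08 (0.866). Lgr5-Apc replicate 1 had a Col4a1 to Col4a2 ratio of 1.42 (0.937), and Lgr5-Apc replicate 4 had 6.45 FPKM of short-chain network collagens summed (0.881).

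The effect of both drivers together was also set against the sum of the single-driver effects, a contrast added after seeing the data. It passed for Col4a4, at 1.29 ± 0.22 on the log2(FPKM + 1) scale (limma, adjusted p = 0.0228), and for Col4a3, at 1.17 ± 0.24 (adjusted p = 0.0409). Both genes passed the filter only through the Lgr5-Cdx2-Apc libraries and were near 0 in the other groups. The contrast thus largely repeats their differences from control, 1.27 for Col4a4 and 1.23 for Col4a3. It is no separate evidence of a departure from additivity. The call was lost under 9 of 18 alternatives for Col4a4 (adjusted p up to 0.109) and under 13 of 18 for Col4a3 (up to 0.153).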

How the results depend on the processing

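For Lgr5-Apc against control, Cdx2-Apc against control and Lgr5-Apc against Cdx2-Apc, 0 collagens were called under all 22 alternatives. For Lgr5-Cdx2-Apc against control the number called higher, 6, became 2 with the squamous score as a covariate (added after seeing the data) and ran from 0 to 10 when 1 library was left out. The number called lower, 1, was 2 with quantile scaling, with a replicate block, in the compared groups alone and with Lgr5-Apc replicates 2 and 3 and control replicate 1 left out together (also added). It was 0 with the squamous covariate and 0 to 2 with 1 library left out. Against Lgr5-Apc the 7 higher became 3 with a pseudocount of 0.1 FPKM or a mean filter of 1 FPKM, 2 with the replicate block, 0 in the compared groups alone, 4 with the squamous covariate and 0 to 10 with 1 library left out, and the 0 lower became 1 (Col6a4) with those 3 libraries left out. Against Cdx2-Apc the 8 higher became 1 with the squamous covariate and 0 to 11 with 1 library left out, and the 0 lower became 1 with a pseudocount of 0.1 FPKM, 1 with the replicate block, 2 in the compared groups alone and 0 to 3 with 1 library left out. The cause was not tested. Replicate numbers gave no clear pairing of the libraries. Same-number pairs had a median correlation of -0.02 (15 pairs, -0.30 to 0.42), and the other 38 pairs one of 0.0051. Of 12 libraries 6 correlated best with their own number, so this check cannot exclude a pairing. Against control, the replicate block took Ddr1 (1.36, adjusted p = 0.0584) and Agrn (1.69, 0.0535) out of the calls and brought in Col1a1 (2.01, 0.0431) and Col4a2 (-1.49, 0.0439). Of 22 alternatives, Col17a1 passed only with the 3 libraries left out together (7.18, adjusted p = 0.00611), which are the high Col17a1 libraries of control and Lgr5-Apc.

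Col3a1 (0.07 against control, -0.60 to 0.44 with 1 library left out) changed sign with median-of-ratios scaling (-0.0062), without control replicate 1 (-0.60), without Lgr5-Cdx2-Apc replicate 2 (-0.30) and with the 3 libraries left out together (-0.60), and Col8a1 (-0.49) with the squamous covariate (0.39). Leaving out a Lgr5-Cdx2-Apc library leaves 1, assumed to vary like the other groups. Over all genes, the number higher against control then fell from 1830 to 202 without replicate 1 and 34 without replicate 2. Col4a3 and Col4a4 gave no value in those fits or with the mean filter. The unknown depth limits what can be said of members below 1 FPKM.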
